A study of Mus musculus with 8 samples.

Results

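The alcohol, aldehyde and retinol dehydrogenases and the aldo-keto reductases of mouse small intestinal epithelium were examined as 5 families defined by gene symbol. Genes were taken whose mouse symbol begins with Adh (alcohol dehydrogenases), Aldh (aldehyde dehydrogenases), Akr (aldo-keto reductases), Rdh (retinol dehydrogenases) or Dhrs (dehydrogenases/reductases of the short-chain type) followed by a digit, leaving out Aldh18a1, Adhfe1 and pseudogene symbols. Of the 23318 genes in the deposited files, 60 met this rule, and 48 of them reached a value of 10 in 4 or more of the 8 libraries. These 48 members were 5 Adh, 11 Akr, 13 Aldh, 8 Dhrs and 11 Rdh genes. The rule used symbols and a minimum level, not the difference between the cell fractions. Of the 48, 42 reached 10 in all 8 libraries, while Adh7, Dhrs9, Rdh1, Rdh12, Rdh16f2 and Aldh4a1 fell short in at least 1 library.

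Total RNA had been prepared from small intestine epithelium sorted by flow cytometry on CD24, a surface glycoprotein. The work belongs to a study of differentiation in the intestine that measured 5-hydroxymethylcytosine. Both groups carried the label 45-U-Neg: cells bearing CD45, the leukocyte antigen, and cells bound by the lectin UEA (Ulex europaeus agglutinin I) had been depleted from each. The CD24Mid group, intermediate for CD24, had 4 libraries with title numbers 1, 3, 5 and 7, and the CD24Neg group, negative for CD24, had 4 libraries with title numbers 2, 4, 6 and 8. The replicates are described as biological, 4 for each fraction. The labels give no strain, age or treatment, and no label pairs the libraries across the fractions. Whether each replicate was 1 mouse or a pool, and whether the fractions shared mice, is not stated in the sources used here.

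These enzymes move hydride between an alcohol and its aldehyde or ketone, or carry an aldehyde on to the acid, with NAD(H) or NADP(H) as the partner. In the intestinal epithelium they are known for 3 jobs: handling dietary retinoids, clearing alcohols and reactive aldehydes from food, microbes and lipid peroxidation, and catabolism of amino acids and other metabolites. Retinol is oxidised to retinaldehyde reversibly by short-chain dehydrogenases of the Rdh and Dhrs families and by some cytosolic alcohol dehydrogenases, and retinaldehyde is oxidised irreversibly to retinoic acid by Aldh1a enzymes. Enterocytes also reduce the retinaldehyde made from beta-carotene to retinol, which is then esterified and exported in lipoproteins. Aldo-keto reductases act on glucose, steroids and many aliphatic aldehydes.

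The values are gene-level expression estimates, scaled between libraries and not divided by gene length, and the unit is called a scaled value here. Estimated depths, read from the even steps between the lowest values, were 17.5 to 19.6 M reads for CD24Mid and 12.5 to 20.7 M for CD24Neg, and 1 read stood for a value of 0.583 to 0.695 and of 1.07 to 1.78 respectively. The defining transcripts of absorptive enterocytes (8 genes, Fabp1, Fabp2, Apoa1, Apoa4, Alpi, Sis, Vil1 and Krt20) summed to 19821 to 30341 in CD24Mid and to 385685 to 680265 in CD24Neg, with 8 of 8 higher. Those of intestinal stem cells (Lgr5, Ascl2, Olfm4, Smoc2, Lrig1 and Ephb2) summed to 47095 to 60596 in CD24Mid and 2221 to 5708 in CD24Neg, with 6 of 6 lower. Goblet cell transcripts summed to 50715 to 77498 against 183583 to 508728 (5 of 6 higher). Lymphocyte transcripts summed to 150.2 to 322 in CD24Mid, and to 3829, 270.2, 793 and 3337 in CD24Neg libraries 2, 4, 6 and 8. Of these 7 genes the T cell genes Cd3e, Cd3g and Cd8a and also Gzmb and Itgae were higher, the B cell gene Cd79a was lower (adjusted p = 6.15e-05) and Ptprc did not pass. Lower in CD24Neg were the genes of proliferation (15624 to 25033 against 1318 to 3864, 5 of 5 lower) and of enteroendocrine cells (3594 to 8006 against 940 to 1330, 5 of 6 lower). Plasma cell genes were lower too (4545 to 9038 against 1315 to 1846, 4 of 4 tested). Their CD24Neg sum was largely Sdc1, at 1632 to 2043 in CD24Mid and 1143 to 1489 in CD24Neg. Jchain had 2782 to 7263 in CD24Mid and 168 to 389 in CD24Neg. Mitochondrially encoded genes took 8.03% to 9.1% of the total of CD24Mid libraries and 28.3% to 37.4% of that of CD24Neg libraries. Without these genes the estimated depths were 15.9 to 18.0 M reads for CD24Mid. For CD24Neg libraries 2, 4, 6 and 8 they were 8.09, 8.97, 14.7 and 8.91 M. The part of these differences in the results on the enzymes was not tested. In bulk samples such as these, a different number of cells of one type and a different amount of a transcript per cell cannot be told apart.

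Most members were higher in CD24Neg. Of the 48, 33 were higher, 9 were lower and 6 did not pass an adjusted p of 0.05 (limma over all 12906 genes tested, Benjamini-Hochberg adjustment). Over all genes tested, 68.3% passed, 34.0% as higher and 34.3% as lower in CD24Neg, so a call by itself is common in this comparison. The median log2 fold change, CD24Neg minus CD24Mid, was 0.94 over the members and -0.02 over all genes tested. More than 2-fold higher were 21 members, where 18.1% of all genes tested were, and more than 2-fold lower were 4, where 19.9% of all genes tested were. In 31 members every CD24Neg library lay above every CD24Mid library (31.8% of all genes tested), and in 8 members every CD24Neg library lay below (32.1%), where ranges did not overlap in either direction for 63.8% of all genes tested. Among the 42 members at 10 or more in all libraries, 30 were higher, 8 lower and 4 not called, with a median of 0.88. Dhrs9 and Rdh1 passed the low-value filter through 1 fraction alone and so had to differ between fractions, and they are within the counts over all 48. Rdh16f2 reached 10 in 5 libraries, with 10.4 as its highest CD24Mid value, so CD24Neg alone carried it past the filter.

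**Figure D1:**
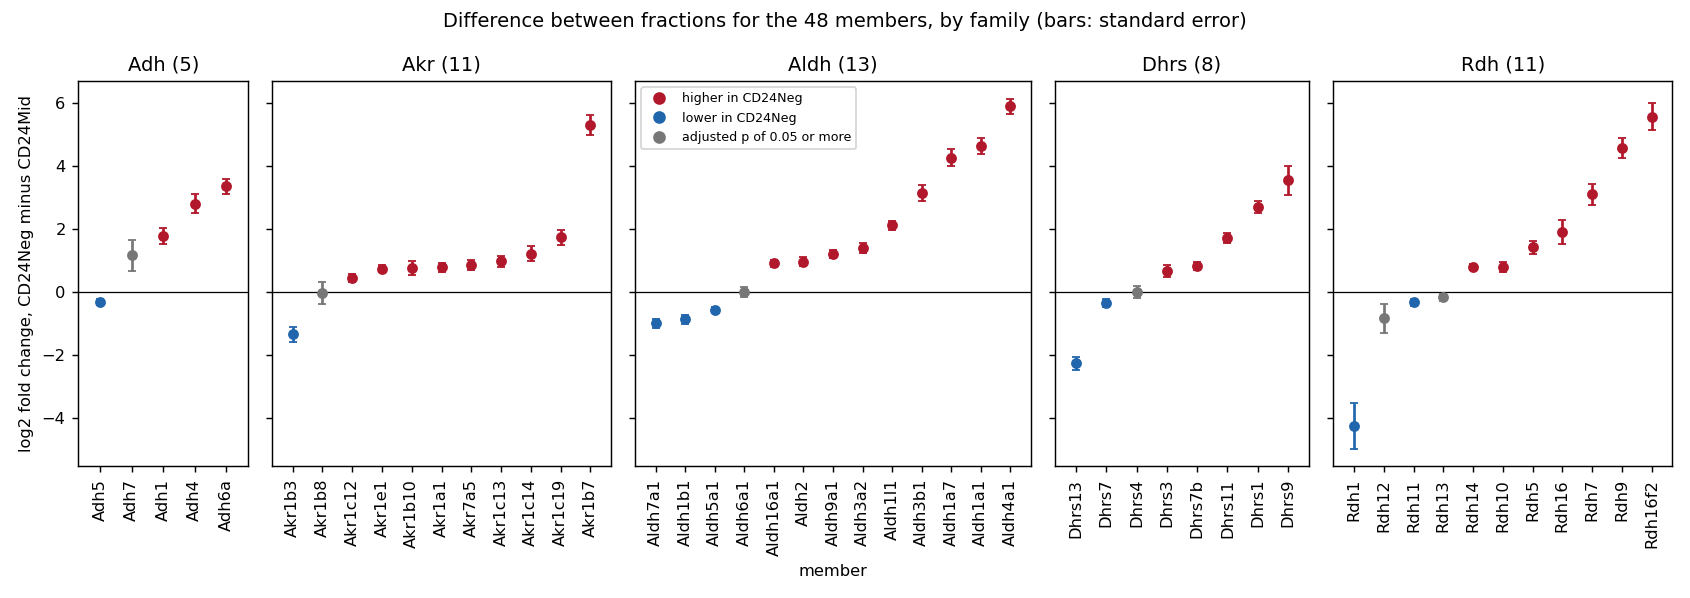
Log2 fold change of each of the 48 members (vertical axis, CD24Neg minus CD24Mid, bars: standard error from limma, 4 libraries per fraction), in 5 panels by family and in rising order within each. The values run from -4.27 for Rdh1, whose CD24Neg values are within a few reads of 0 so that its size depends on the pseudocount, to 5.91 for Aldh4a1, and 33 members are coloured as higher, 9 as lower and 6 as not passing.

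The split between directions moved with the scaling. When each library was scaled by its total after the 20 most abundant genes were set aside, the median difference of all genes tested shifted to -0.44 on the log2 scale, 2842 genes were higher and 6497 lower in place of 4386 and 4424, and the members divided into 30 higher and 13 lower with a median of 0.51. No member that passed in the scaling used here changed its direction under that scaling, under quantile normalization or without centring. Under scaling by the reduced totals Akr1c12, Akr1b10 and Dhrs3 no longer passed and Rdh12, Rdh13, Aldh6a1 and Dhrs4 passed as lower. Under quantile normalization Akr1c12 and Dhrs3 no longer passed and Adh7 passed as higher, and without centring no member's call changed.

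By family, 3 of 5 Adh genes were higher and 1 lower (median log2 fold change 1.77), 9 of 11 Akr genes were higher and 1 lower (0.78), 9 of 13 Aldh genes were higher and 3 lower (1.22), 5 of 8 Dhrs genes were higher and 2 lower (0.75), and 7 of 11 Rdh genes were higher and 2 lower (0.79). Beside these counts, 34.0% of all genes tested were higher and 34.3% lower. The summed value of a family was larger in CD24Neg in every case. The Adh sum was 5352 ± 1282 in CD24Mid and 25022 ± 4385 in CD24Neg (SD, n = 4), a ratio of 4.68. For the Rdh sum the ratio was 2.73, with 2666 ± 234 and 7276 ± 2059, and for the Dhrs sum it was 2.32, with 5889 ± 1004 and 13682 ± 1960. The ratio was 1.87 for the Akr sum, with 11112 ± 1750 and 20791 ± 2315, and 1.53 for the Aldh sum, with 25369 ± 2734 and 38861 ± 4041. The sums are descriptions of chosen genes and were given no test.

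**Figure D2:**
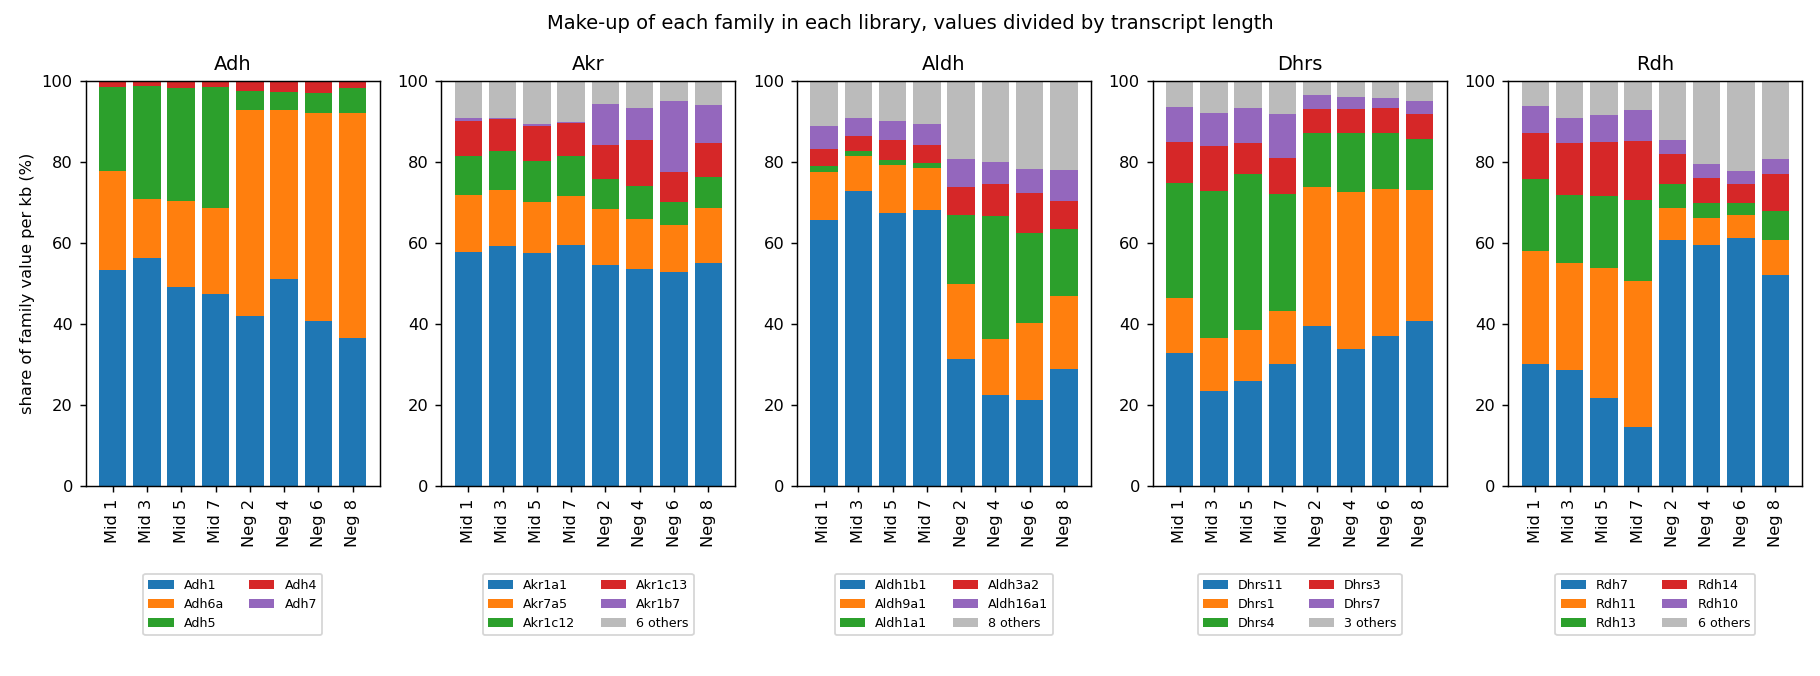
Share of each family's summed value per kb of transcript (vertical axis, percent) in each of the 8 libraries (horizontal axis, CD24Mid 1, 3, 5, 7 and CD24Neg 2, 4, 6, 8), with the 5 members of largest mean share in colour and the others in grey. Aldh1b1 holds a mean of 68.5% of the Aldh family in CD24Mid and 26.1% in CD24Neg, and Rdh7 holds 23.8% and 58.4% of the Rdh family.

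Among the alcohol dehydrogenases, Adh1, Adh4 and Adh6a were higher in CD24Neg and Adh5 was lower. Values are listed below in the order of libraries 1, 3, 5 and 7 for CD24Mid and 2, 4, 6 and 8 for CD24Neg. Adh6a, a little studied alcohol dehydrogenase (ENSMUSG00000053054), had values of 2399, 1089, 1370 and 1272 in CD24Mid and 17234, 14045, 17062 and 12273 in CD24Neg, so that the groups lay far apart, 10.3-fold higher in CD24Neg (log2 fold change 3.36, SE 0.23, adjusted p = 1.09e-06). Adh1 (ENSMUSG00000074207), the class I enzyme that oxidises ethanol and retinol, had values of 3322, 2647, 2004 and 1798 in CD24Mid and 8997, 10897, 8527 and 5084 in CD24Neg. All CD24Neg libraries were above all CD24Mid libraries, with library 8 lowest among them (3.4-fold, log2 fold change 1.77, SE 0.25, adjusted p = 0.000144). Adh4, an enzyme that also accepts retinol, was less abundant per kb (44.5 per kb in CD24Mid and 324 per kb in CD24Neg, against 1637 per kb in CD24Mid and 5614 per kb in CD24Neg for Adh1), with values of 80.6, 45.6, 60.8 and 47.2 in CD24Mid and 464, 479.5, 539 and 222 in CD24Neg (7.03-fold, log2 fold change 2.81, SE 0.29, adjusted p = 1.54e-05).

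Adh5, the glutathione-dependent formaldehyde dehydrogenase found in nearly all cells, went the other way by a small step. Its values were 1380, 1414, 1221 and 1217 in CD24Mid and 1090, 1056, 1113 and 905 in CD24Neg, and every CD24Neg library was below every CD24Mid library (log2 fold change -0.33, adjusted p = 0.0148). The call was lost without CD24Neg libraries 2 and 8 (-0.24, adjusted p = 0.0979), and adjusted p ranged from 3.35e-05 to 1 over 18 alternatives. Adh7, the class IV enzyme with high activity for retinol, was near the low end with 16.8, 9.85, 9.58 and 5.56 in CD24Mid and 33.4, 34.9, 23.6 and 9.17 in CD24Neg, and did not pass (adjusted p = 0.058). It passed without CD24Neg library 8 (log2 fold change 1.59, adjusted p = 0.00775), without CD24Mid library 1 (1.42, adjusted p = 0.0388), without CD24Neg libraries 2 and 8 (1.53, adjusted p = 0.0194) and under quantile normalization (1.58, adjusted p = 0.0227). Per kb of transcript, which allows levels of different genes to be compared, Adh1 made up 51.6% ± 4.01 of the family in CD24Mid and 42.6% ± 6.17 in CD24Neg, Adh5 26.6% ± 4.07 and 5.08% ± 0.655, and Adh6a 20.3% ± 4.1 and 49.9% ± 5.9. Adh6a and Adh1 were thus the leading family transcripts of CD24Neg, and their ranges of share overlapped there (41.6% to 55.6% and 36.5% to 51.1%).

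The aldehyde dehydrogenases held both the member with the largest positive log2 difference and the most abundant member of all 5 families in CD24Mid. Aldh1a1 (ENSMUSG00000053279), a cytosolic enzyme that turns retinaldehyde into retinoic acid, had values of 356, 266, 271 and 212 in CD24Mid and 5378, 11501, 7447 and 4784 in CD24Neg. The fractions differed 25.2-fold, and the CD24Neg libraries varied among themselves, with library 4 the highest and library 8 the lowest (log2 fold change 4.65, SE 0.26, adjusted p = 4.14e-07). Aldh1a7, a rodent enzyme not known for retinaldehyde oxidation, is its near copy. It ranged from 34.3 to 72.6 in CD24Mid and from 732 to 1466 in CD24Neg (19.4-fold, log2 fold change 4.28, SE 0.26, adjusted p = 6.55e-07), and the ratio of Aldh1a7 to Aldh1a1 lay between 0.162 and 0.204 in CD24Mid and between 0.127 and 0.153 in CD24Neg.

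Shown next are the first 90 coding bases of both, from the GENCODE M21 transcripts (GRCm38), because reads from such copies can be hard to assign; capitals mark bases at which Aldh1a7 differs from Aldh1a1.
Aldh1a1: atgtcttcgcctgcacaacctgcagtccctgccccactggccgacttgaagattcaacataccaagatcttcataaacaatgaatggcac
Aldh1a7: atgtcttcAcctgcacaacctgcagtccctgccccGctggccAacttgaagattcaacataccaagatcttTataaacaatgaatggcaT
There were 5 differences in the 90 bases, and the whole coding sequences were 91.9% identical. Of the distinct 50-base words in the longest transcript, 6.54% of those of Aldh1a1 and 7.49% of those of Aldh1a7 occurred in the other gene, so most positions can be told apart.

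The other retinaldehyde dehydrogenases were at or near 0. Aldh1a2 was listed at 0 in all libraries but CD24Mid library 7, which had 0.405. Aldh1a3 had 5.03, 5.97, 4.74 and 2.89 in CD24Mid and 3.18, 1.44, 6.27 and 0.968 in CD24Neg, below the minimum for a test. Of the 3 Aldh1a genes listed for the step from retinaldehyde to retinoic acid, 1 was therefore tested.

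Aldh1b1 (ENSMUSG00000035561), a mitochondrial enzyme that oxidises acetaldehyde and other aldehydes including retinaldehyde, was lower in CD24Neg. It had values of 15614, 18075, 13977 and 13259 in CD24Mid and 9759, 8358, 6950 and 8102 in CD24Neg, with no overlap between fractions. The difference was 1.84-fold (log2 fold change -0.88, SE 0.14, adjusted p = 0.000333). Over 18 alternatives the log2 fold change ran from -1.60, under quantile normalization, to -0.79. Aldh1b1 did not pass the test against a fold change of 1.5 (adjusted p = 0.0855). Nor did several other members with differences under 2-fold, which are named in the last section. At 6628 per kb in CD24Mid and 3609 per kb in CD24Neg, it remained the most abundant Aldh transcript per length in CD24Neg by its mean, ahead of Aldh1a1 with 3086 per kb. The order of the pair was reversed in CD24Neg libraries 4 and 6: the ratio of Aldh1a1 to Aldh1b1, in values not divided by length, ran from 0.551 to 1.38 over the CD24Neg libraries and from 0.0147 to 0.0228 in CD24Mid. Aldh2, the mitochondrial enzyme that clears acetaldehyde made from ethanol, moved in the opposite direction with 2040, 1770, 1459 and 1396 in CD24Mid and 3080, 3639, 3457 and 2738 in CD24Neg (1.95-fold higher, log2 fold change 0.96, SE 0.14, adjusted p = 0.000189).

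**Figure D3:**
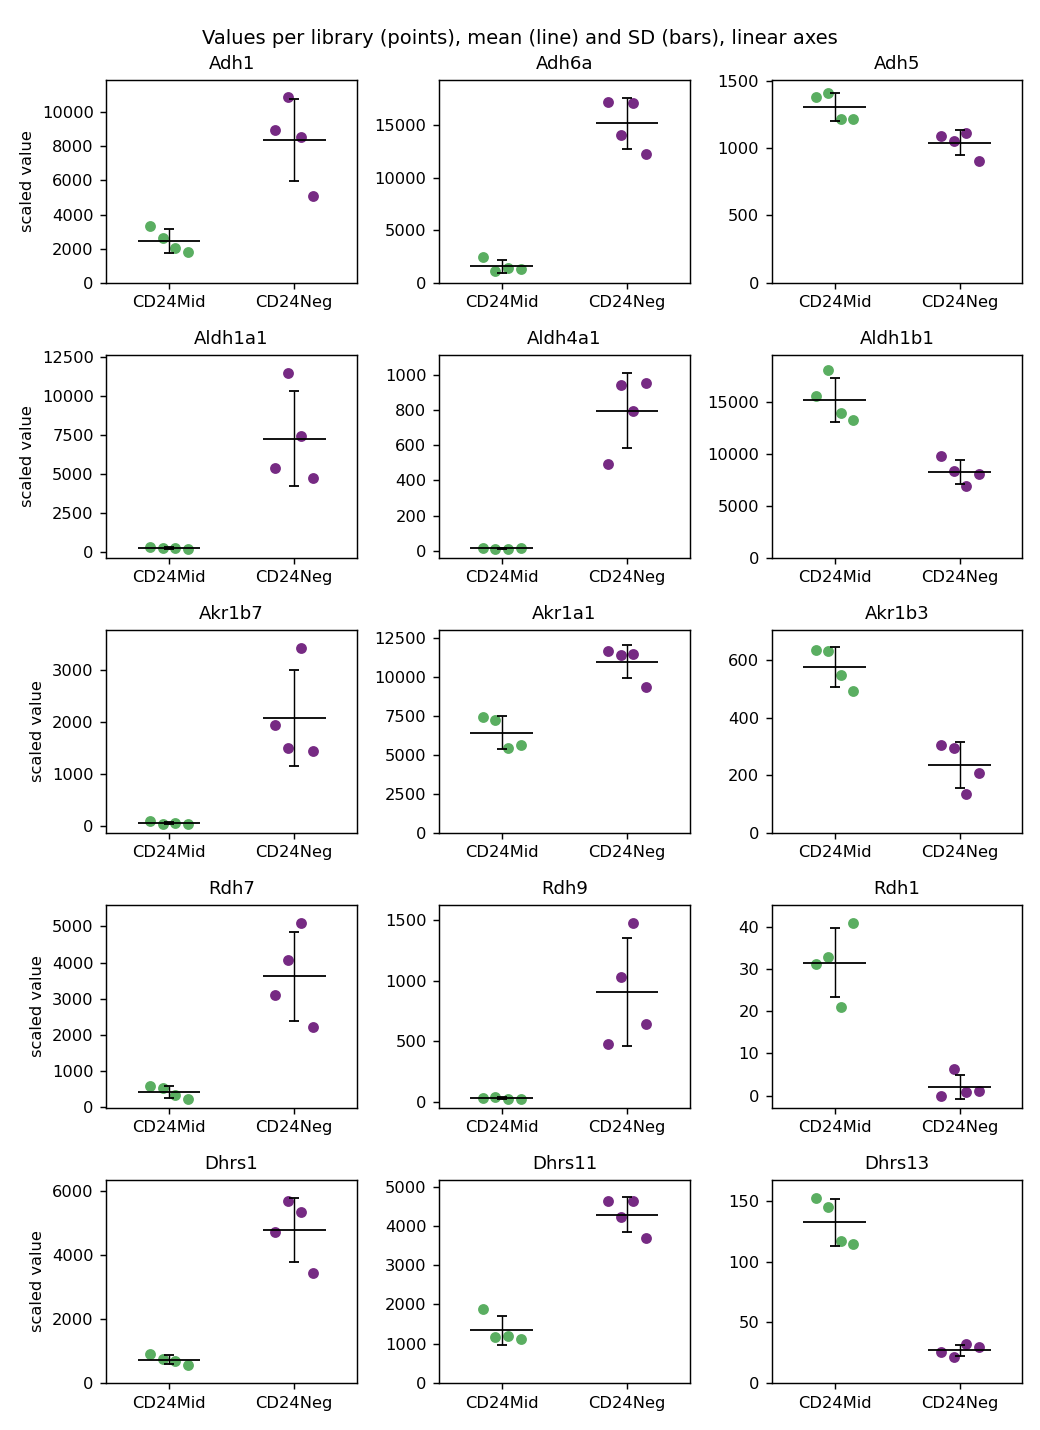
Scaled value in each library (points, 4 per fraction, linear axes), with the mean (line) and SD (bars), for 15 members, 3 from each family. Aldh1a1 lies at 212 to 356 in CD24Mid and 4784 to 11501 in CD24Neg, while Aldh1b1, Adh5, Akr1b3, Rdh1 and Dhrs13 lie lower in CD24Neg without overlap.

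Of the 6 tested mitochondrial aldehyde dehydrogenases, Aldh1b1, Aldh5a1 and Aldh7a1 were lower, Aldh2 and Aldh4a1 were higher, and Aldh6a1 did not pass. Over all genes tested, 34.3% were lower and 34.0% higher. Aldh4a1, which oxidises pyrroline-5-carboxylate in proline breakdown, had values of 16.4, 11.2, 9.56 and 13.3 in CD24Mid and 495, 948, 799.6 and 955 in CD24Neg. The CD24Mid values lie close to the minimum of 10 and the CD24Neg values are all well above them, a 60-fold difference (log2 fold change 5.91, SE 0.25, adjusted p = 1.81e-07). A share of 45% of its 50-base words also occurs in the gene model Gm21969, so that reads of both may not be separable. Aldh7a1, the lysine-pathway enzyme antiquitin, had 165, 186, 165 and 157 in CD24Mid and 77.4, 84.6, 83.9 and 88.2 in CD24Neg, 2.01-fold lower in CD24Neg with no overlap (log2 fold change -1.005, SE 0.13, adjusted p = 7.95e-05). Aldh5a1, succinic semialdehyde dehydrogenase, ranged from 802 to 831 in CD24Mid and from 502 to 650.5 in CD24Neg (log2 fold change -0.57, SE 0.10, adjusted p = 0.000568). Aldh6a1, the methylmalonate semialdehyde dehydrogenase of valine breakdown, had 417, 393, 469 and 386 in CD24Mid and 363, 466, 522 and 329 in CD24Neg, and the ranges overlapped (log2 fold change -0.0078, adjusted p = 0.966).

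The remaining Aldh members were higher in CD24Neg, each without overlap of the fractions, as were 31.8% of all genes tested. Aldh9a1, which makes a precursor of carnitine, had 3500, 2703, 3009 and 2539 in CD24Mid and 7127, 6339, 7598 and 6167 in CD24Neg (2.33-fold, log2 fold change 1.22, SE 0.13, adjusted p = 1.53e-05). Aldh16a1, a member without the usual catalytic cysteine, had 2027, 1730, 1534 and 1537 in CD24Mid and 3326, 3120, 2956 and 3353 in CD24Neg (1.88-fold, log2 fold change 0.91, SE 0.11, adjusted p = 4.75e-05). Aldh1l1, the cytosolic formyltetrahydrofolate dehydrogenase, went from 716 ± 151 to 3075 ± 296 (SD, n = 4; 4.35-fold, adjusted p = 1.22e-06). The fatty aldehyde dehydrogenase Aldh3a2 went from 1293 ± 78.3 to 3457 ± 814 (2.62-fold, adjusted p = 2.89e-05), and Aldh3b1, which acts on aldehydes from lipid peroxidation, from 75.6 ± 28.6 to 642 ± 89 (8.85-fold, adjusted p = 2.63e-06). Of the 8 listed genes for amino acid, choline and folate aldehydes, 6 were tested: 3 were higher, 2 lower and 1 did not pass. The shares over all genes tested were 34.0% higher and 34.3% lower.

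**Figure D4:**
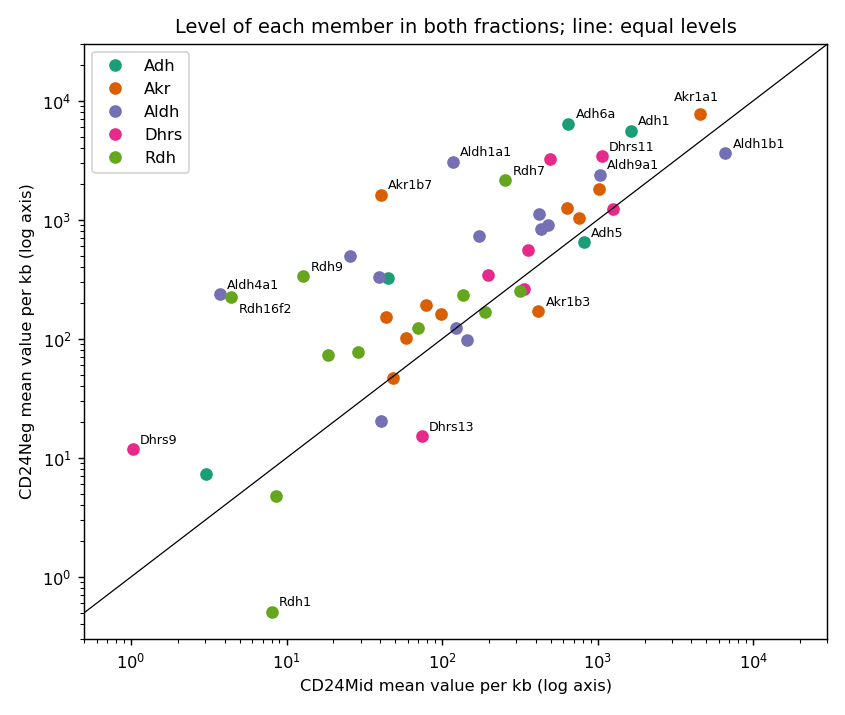
Mean scaled value per kb of transcript in CD24Mid (horizontal axis, log) against CD24Neg (vertical axis, log) for the 48 members, coloured by family, with the line of equal levels. Points above the line are higher in CD24Neg, as is Aldh1a1 with 117 and 3086 per kb, and Aldh1b1 with 6628 and 3609 per kb lies below it.

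The retinol dehydrogenases of the short-chain type were among the members with the largest differences. Of 9 listed retinol-oxidising short-chain genes present in the files, 8 were tested, 7 were higher and 1, Rdh1, was lower, all without overlap of the fractions (63.8% of all genes tested did not overlap). Dhrs9 and Rdh1 passed the low-value filter only through the fraction where they are high, so the filter fixed their difference. The other 6 were all higher, but Rdh16f2 among them also passed through CD24Neg, with 10.4 as its highest CD24Mid value. Of these 8, Rdh1, Rdh7, Rdh9, Rdh16 and Rdh16f2 form a row of near copies on chromosome 10, and their coding starts are printed because the row holds both directions and its sequences are this alike. The first 90 coding bases are given from the GENCODE M21 transcripts (GRCm38), with capitals for bases that differ from Rdh1.
Rdh1: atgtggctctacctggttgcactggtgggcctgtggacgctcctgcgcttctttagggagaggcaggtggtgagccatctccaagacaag
Rdh7: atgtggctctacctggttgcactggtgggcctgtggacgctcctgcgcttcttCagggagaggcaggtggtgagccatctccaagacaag
Rdh9: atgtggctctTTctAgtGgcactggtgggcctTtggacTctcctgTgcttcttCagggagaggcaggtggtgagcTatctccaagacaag
Rdh16: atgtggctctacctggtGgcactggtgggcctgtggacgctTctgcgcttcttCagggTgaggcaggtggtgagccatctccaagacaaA
Rdh16f2: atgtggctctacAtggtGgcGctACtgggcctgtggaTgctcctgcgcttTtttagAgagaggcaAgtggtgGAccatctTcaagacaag
Rdh7 differs from Rdh1 at 1 of these bases, Rdh16 at 5, Rdh9 at 9 and Rdh16f2 at 12. Over the whole coding sequence, identity with Rdh1 was 87.9% for Rdh7, 89.9% for Rdh16f2, 92.1% for Rdh9 and 93.1% for Rdh16, and Rdh9 and Rdh16 were 96.3% identical.

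Rdh7 (ENSMUSG00000040134), a retinol dehydrogenase that also oxidises 3-alpha-hydroxysteroids, was the most abundant of them. It had values of 603, 529, 352 and 229 in CD24Mid and 3113, 4075, 5085 and 2211 in CD24Neg, and the CD24Neg libraries all lay above, with library 6 highest and library 8 lowest (8.62-fold, log2 fold change 3.11, SE 0.33, adjusted p = 1.66e-05). Rdh9 had 38.5, 44.9, 28.2 and 27 in CD24Mid and 478, 1026, 1473 and 643 in CD24Neg (24-fold, log2 fold change 4.59, SE 0.33, adjusted p = 1.4e-06). Over 18 alternatives its log2 fold change ran from 4.16 to 5.18, the latter without CD24Neg libraries 2 and 8. Its transcript shares 92.3% of its 50-base words with other genes, 90.1% with Rdh16f1, which is not analysed here, so its values cannot be assigned to Rdh9 alone. Rdh16f2 was at a few reads in CD24Mid, with 3.92, 10.4, 2.85 and 5.09 in CD24Mid and 204, 365, 419 and 149 in CD24Neg, and did not overlap with CD24Neg (47.7-fold, log2 fold change 5.58, SE 0.44, adjusted p = 2.39e-06). Its ratio to Rdh16 lay between 0.0523 and 0.116 in CD24Mid and between 0.99 and 1.59 in CD24Neg. Its log2 fold change ran from 5.17 to 6.18 over 17 alternatives, the latter without CD24Neg libraries 2 and 8. Rdh16 ranged from 43.9 to 92.6 in CD24Mid and from 137 to 423 in CD24Neg (3.76-fold, log2 fold change 1.91, SE 0.37, adjusted p = 0.00104).

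Rdh1 was the exception of the row. Its values were 31.2, 32.8, 21 and 40.9 in CD24Mid, and 6.56e-05, 6.21, 0.747 and 1.08 in CD24Neg, so that CD24Neg was within a few reads of 0 and no fold is given (adjusted p = 0.000421). Of its 50-base words, 15.6% occur in another gene, 11.7% in Rdh16f1. Rdh5, an 11-cis-retinol dehydrogenase best known from the eye, ranged from 31.1 to 40.5 in CD24Mid and 66.7 to 112 in CD24Neg (2.67-fold, adjusted p = 0.000252). Rdh10, the main retinol dehydrogenase of the embryo, had 280, 244, 235 and 250.5 in CD24Mid and 395, 484, 548 and 342 in CD24Neg (1.73-fold, log2 fold change 0.79, SE 0.15, adjusted p = 0.00103). Dhrs9, a dehydrogenase of retinol and 3-alpha-hydroxysteroids, was low throughout, with 9.15, 1.79, 3.34 and 3.25 in CD24Mid and 51.5, 45.2, 71.8 and 34.9 in CD24Neg. Its CD24Mid values are a few reads, and the fractions did not overlap (11.7-fold, log2 fold change 3.55, SE 0.47, adjusted p = 7.65e-05). Over 17 alternatives the log2 fold change of Dhrs9 ran from 3.16 to 4.22, the latter under quantile normalization.

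The enzymes that mainly reduce retinaldehyde to retinol went in different directions. Of 6 in the list, Rdh14 and Dhrs3 were higher, Rdh11 was lower, and Rdh12, Rdh13 and Dhrs4 did not pass (median log2 fold change -0.093). Among all genes tested, 34.0% were higher and 34.3% lower. Rdh11, which uses NADPH to reduce retinaldehyde, had 1083, 939, 1010 and 1100 in CD24Mid and 780, 888, 930.5 and 702 in CD24Neg, and the fractions just failed to touch, with 930.5 the highest CD24Neg value and 939 the lowest CD24Mid value (log2 fold change -0.33, SE 0.11, adjusted p = 0.023). The call was lost without CD24Mid library 7 (adjusted p = 0.0578), without CD24Neg library 2 (0.0628), without library 8 (0.0684) and without both of these (log2 fold change -0.16, adjusted p = 0.258). Dhrs3, which reduces retinaldehyde in a complex with Rdh10, had 1070, 1004, 651 and 621 in CD24Mid and 1316, 1404, 1462 and 1045 in CD24Neg. Library 8 of CD24Neg fell among the CD24Mid values (1.6-fold, log2 fold change 0.67, SE 0.20, adjusted p = 0.0109), and the call was lost under quantile normalization (adjusted p = 0.108) and under scaling to totals without the top 20 genes (0.227).

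Rdh13, a mitochondrial relative, had 644, 561, 519 and 559.5 in CD24Mid and 556, 479, 436 and 559.6 in CD24Neg with overlapping ranges (log2 fold change -0.17, adjusted p = 0.205). Dhrs4, a peroxisomal carbonyl and retinaldehyde reductase, had 1799, 1996, 1954 and 1201 in CD24Mid and 1710, 2002, 1888 and 1259 in CD24Neg, with library 7 of CD24Mid and library 8 of CD24Neg lowest and the ranges overlapping (log2 fold change -0.013, SE 0.19, adjusted p = 0.957). Rdh14 ranged from 189.6 to 208 in CD24Mid and from 325 to 372 in CD24Neg, a narrow spread in both (1.73-fold, log2 fold change 0.79, SE 0.10, adjusted p = 6.66e-05). Rdh12, the photoreceptor enzyme, had values of 8.38 to 22.7 in CD24Mid, overlapping the 4.42 to 15.2 of CD24Neg, and did not pass (adjusted p = 0.137); it passed as lower without CD24Neg library 4 (-1.18, adjusted p = 0.0364). Per kb, Rdh11 was the leading Rdh transcript of CD24Mid with 30.6% ± 4.47 of the family, next to Rdh7 with 23.8% ± 7.15, and the ranges of the pair overlapped (26.2% to 36.2% and 14.6% to 30.1%). In CD24Neg, Rdh7 held 58.4% ± 4.21 and Rdh11 7.2% ± 1.23.

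The other Dhrs genes included large differences in both directions. Dhrs1, a short-chain reductase of steroids and xenobiotics, had 910.2, 761, 684 and 576 in CD24Mid and 4717, 5686, 5351 and 3429 in CD24Neg (6.51-fold, log2 fold change 2.70, SE 0.18, adjusted p = 1.02e-06). Dhrs11, a reductase of ketosteroids, had 1871, 1164, 1182 and 1122 in CD24Mid and 4622, 4219, 4620 and 3678 in CD24Neg (3.27-fold, log2 fold change 1.71, SE 0.17, adjusted p = 1.01e-05). In both genes the CD24Neg libraries all lay above, and in both CD24Mid library 1 was the highest of its group. Dhrs7b, which takes part in ether lipid synthesis, went from 643 ± 78.8 to 1136 ± 131 (1.77-fold, adjusted p = 0.000166).

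Dhrs13, whose substrate is poorly known, was 4.82-fold lower in CD24Neg, with 153, 145, 117 and 115 in CD24Mid and 25.3, 21.8, 32.1 and 29.2 in CD24Neg (log2 fold change -2.27, SE 0.20, adjusted p = 5.34e-06). Dhrs7, which reduces steroids and quinones, was lower by a small step, with 542, 453, 424 and 448 in CD24Mid and 424, 389, 331 and 319.5 in CD24Neg, so that the lowest CD24Mid value met the highest CD24Neg value (log2 fold change -0.35, SE 0.13, adjusted p = 0.0295). Its call did not hold without CD24Mid library 1 (adjusted p = 0.0742), CD24Neg library 6 (0.077) or CD24Neg library 8 (0.0855), nor with no filter on low values (0.0506) nor without CD24Neg libraries 2 and 8 (0.0604). Per kb, Dhrs4 and Dhrs11 led the family in CD24Mid with 33.1% ± 5.13 and 28.1% ± 4.17, and Dhrs11 and Dhrs1 led it in CD24Neg with 37.8% ± 3.08 and 35.5% ± 2.76.

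Akr1a1, Akr7a5 and Akr1e1 were the aldo-keto reductases outside the aldose reductase and hydroxysteroid dehydrogenase branches. Akr1a1, the aldehyde reductase that also makes the ascorbate precursor in mice, was the most abundant Akr transcript per kb in both fractions and had 7409, 7228, 5424 and 5613 in CD24Mid and 11660, 11389, 11472 and 9359 in CD24Neg (1.72-fold, log2 fold change 0.78, SE 0.14, adjusted p = 0.000638). It made up 58.6% ± 1.02 of the Akr value per kb in CD24Mid and 54.1% ± 1.01 in CD24Neg. Akr7a5, which reduces aflatoxin dialdehyde and succinic semialdehyde, had 1621, 1521, 1094 and 1023 in CD24Mid and 2675, 2366, 2272 and 2058 in CD24Neg (1.81-fold, log2 fold change 0.86, SE 0.16, adjusted p = 0.00091). Akr1e1, an anhydrofructose reductase, ranged from 299.6 to 368 in CD24Mid and from 512 to 649 in CD24Neg (1.66-fold, adjusted p = 0.00021). All 3 of these other aldo-keto reductases were higher without overlap, as were 31.8% of all genes tested. None of the 3 was higher by more than 2-fold.

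The aldose reductase branch spread from strongly higher to lower. Akr1b7 (ENSMUSG00000052131), first known as the vas deferens androgen-dependent protein, which reduces aldehydes from lipids and steroids, had 81.9, 38, 49 and 37.5 in CD24Mid and 1949, 1508, 3432 and 1442 in CD24Neg (39.5-fold, log2 fold change 5.30, SE 0.32, adjusted p = 5.35e-07), and library 6 stood highest. Akr1b3, the aldose reductase that turns glucose into sorbitol, had 635, 634, 549 and 492 in CD24Mid and 306, 294, 135 and 208 in CD24Neg and was 2.55-fold lower (log2 fold change -1.35, SE 0.24, adjusted p = 0.00059). The ratio of Akr1b7 to Akr1b3 lay between 0.06 and 0.129 in CD24Mid and between 5.13 and 25.4 in CD24Neg. Reads of Akr1b3 can be shared with copies, since 59.9% of its 50-base words occur elsewhere, 56.2% in the pseudogene Gm6644. Akr1b10 was at 65.6 to 90.6 in CD24Mid and 90.4 to 176 in CD24Neg, ranges that just overlapped (1.7-fold, adjusted p = 0.0108), and the call was lost without CD24Neg libraries 2 and 8 (0.0697). Akr1b8 had values of 40.9 to 104 in CD24Mid, overlapping the 43.8 to 105 of CD24Neg, and did not pass (log2 fold change -0.028, adjusted p = 0.947).

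The hydroxysteroid dehydrogenase branch was higher in CD24Neg in 4 of 4 tested genes, where 34.0% of all genes tested were higher. Akr1c19 had 264, 294, 213 and 242 in CD24Mid and 765, 1433, 657 and 692 in CD24Neg, with library 4 far above the others of its group (3.33-fold, log2 fold change 1.74, SE 0.23, adjusted p = 8.62e-05). Akr1c14, a 3-alpha-hydroxysteroid dehydrogenase, went from 251 ± 46.5 to 608 ± 224 (2.33-fold, adjusted p = 0.00141). Akr1c12 had 1087, 1053, 843 and 838 in CD24Mid and 1393, 1531, 1102 and 1177 in CD24Neg (1.36-fold, log2 fold change 0.44, SE 0.14, adjusted p = 0.0156), and its call was lost under quantile normalization (adjusted p = 0.413), under scaling to totals without the top 20 genes (0.925) and without CD24Mid library 5 (0.0514). Akr1c13 had 995, 845, 715 and 668 in CD24Mid and 1607, 2124, 1397 and 1258 in CD24Neg (1.97-fold, log2 fold change 0.98, SE 0.18, adjusted p = 0.000732). Akr1c12 and Akr1c13 are 96.2% identical over their coding sequence and share 28.6% of their 50-base words, so that the authors' counting could split reads between them. The ratio of Akr1c13 to Akr1c12 lay between 0.796 and 0.915 in CD24Mid and between 1.07 and 1.39 in CD24Neg.

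**Figure D5:**
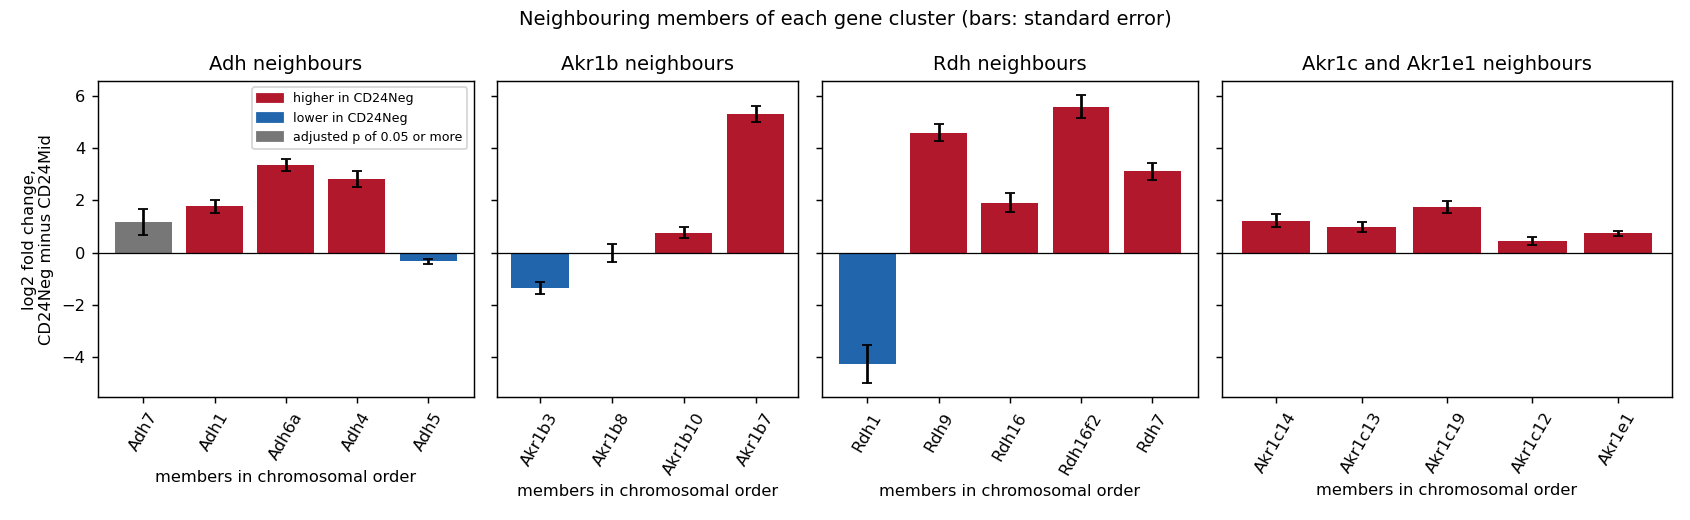
Log2 fold change (vertical axis, CD24Neg minus CD24Mid, bars: standard error from limma) of members that are neighbours in RefSeq's gene order, in chromosomal order along the horizontal axis. Rdh1, Akr1b3 and Adh5 stand at one end of their rows and are lower, and all 5 members of the Akr1c row are higher.

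Many members are neighbours on the chromosome. In RefSeq's gene order, 26 of the 48 lie in 9 rows of neighbouring family genes. In the row on chromosome 10 the order is Rdh1, Rdh9, Rdh16, Rdh19, Rdh16f2 and Rdh7, with the first lower and the other tested genes higher. On chromosome 3 the order is Adh7, Adh1, Adh6a, Adh6b, Adh4 and Adh5, of which Adh1, Adh6a and Adh4 were higher and Adh5 lower. The row on chromosome 6 holds Akr1b3, lower, Akr1b8, which did not pass, and Akr1b10 and Akr1b7, both higher. The row on chromosome 13 holds the members Akr1c14, Akr1c13, Akr1c19, Akr1c12 and Akr1e1, all higher. It also holds Akr1c18, Akr1c6, Akr1c20 and Akr1c21, which are not members. Aldh1a1 and Aldh1a7 on chromosome 19 were both higher, and Rdh11 and Rdh12 on chromosome 12 were lower and not called. Whether neighbours shared their direction more often than other genes was not tested.

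Promoter windows from RefSeq (GRCm38.p6, 250 bases before to 50 after the annotated start) were found for 43 of the 48 members, in 50 windows. The 3 printed are of Aldh1b1, the most abundant member in CD24Mid, and of Akr1b7 and Adh6a. Aldh1b1 was 1.84-fold lower in CD24Neg, and Akr1b7 and Adh6a were 39.5-fold and 10.3-fold higher. Each window is given from 250 bases before the start to 30 after it. Capitals stand at matches on either strand to the motifs searched.
Aldh1b1, chr4:45798772-45799051, plus strand: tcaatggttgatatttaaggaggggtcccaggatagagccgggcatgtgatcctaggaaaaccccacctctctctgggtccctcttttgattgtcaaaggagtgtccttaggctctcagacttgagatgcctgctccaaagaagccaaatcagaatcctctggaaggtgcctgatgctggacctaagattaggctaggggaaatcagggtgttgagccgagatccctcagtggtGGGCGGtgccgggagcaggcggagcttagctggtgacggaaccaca
Akr1b7, chr6:34412112-34412391, plus strand: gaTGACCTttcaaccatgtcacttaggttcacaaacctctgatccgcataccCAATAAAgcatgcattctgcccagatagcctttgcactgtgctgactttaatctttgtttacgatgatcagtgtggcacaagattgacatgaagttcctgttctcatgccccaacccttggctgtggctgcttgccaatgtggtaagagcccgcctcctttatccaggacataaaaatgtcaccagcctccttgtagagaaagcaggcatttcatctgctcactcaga
Adh6a, chr3:138313036-138313315, plus strand: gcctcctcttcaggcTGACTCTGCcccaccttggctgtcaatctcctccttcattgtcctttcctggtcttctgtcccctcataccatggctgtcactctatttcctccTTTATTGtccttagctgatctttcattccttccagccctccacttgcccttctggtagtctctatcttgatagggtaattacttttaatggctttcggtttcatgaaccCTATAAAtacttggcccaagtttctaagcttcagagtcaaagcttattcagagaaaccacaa
The capitals are the Sp1 GC box GGGCGG in Aldh1b1; the nuclear receptor letters AGGTCA (as TGACCT) and the CDX2 letters TTTATNG (as CAATAAA) in Akr1b7; and in Adh6a the antioxidant response letters TGACNNNGC, 2 matches of the CDX2 letters and the TATA box TATAAA, which overlaps the CDX2 match next to the start. These windows hold 6, 3 and 1 CpG.

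Over all 32851 RefSeq windows of the same length, AGGTCA occurred in 16.3%, and in 26% of the member windows (13 of 50). TATAAA occurred in 13.6% of all windows and 16% of member windows, and TTTATNG in 10.9% and 12%. GGGCGG occurred in 35.7% and 30%, and TGACNNNGC in 12.4% and 8%. The HNF1 motif was in 0.122% of all windows and in 1 member window, that of Akr1c19, and the E2F letters TTTCCCGC were in 1.07% and in 1 member window, that of Aldh5a1. The HNF4 letters CAAAGTCCA (0.475% of all windows) and the GATA letters AGATAAG (3.04%) were in no member window, which says only that these letters are absent there. The median number of CpG per window was 7 over all windows, 6 over the 35 windows of members higher in CD24Neg and 11 over the 9 windows of members lower in CD24Neg. These are descriptions of letters in a window, with no test.

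Genes of retinoid handling outside the families were called in both directions. Of 26 such genes found in the files, 20 were tested, of which 12 were higher, 5 lower and 3 did not pass, where 34.0% of all genes tested were higher and 34.3% lower. Rbp2, the cellular retinol-binding protein of enterocytes, had 2029, 1042, 1146 and 928 in CD24Mid and 42776, 44758, 50494 and 39004 in CD24Neg (36-fold, log2 fold change 5.17, SE 0.22, adjusted p = 1.81e-07). Dgat1, an acyltransferase that can esterify retinol, had 4428, 2773, 2685 and 2610 in CD24Mid and 18987, 18813, 19982 and 20172 in CD24Neg (6.39-fold, adjusted p = 6.83e-07), and Bco2, which cleaves carotenoids away from the centre, 456, 261, 262 and 269 in CD24Mid and 2349, 1826, 2588 and 1752 in CD24Neg (6.93-fold, adjusted p = 1.5e-06). The lipid uptake receptor Cd36 ranged from 27.4 to 53.9 in CD24Mid and from 674 to 2578 in CD24Neg (29.5-fold, adjusted p = 3.41e-06). Lower were Fabp5, a fatty acid and retinoic acid carrier (5.81-fold, adjusted p = 4.29e-05), the retinol carrier partner Ttr, and Rbp4, Rbp7 and Sdr16c5. Not passing were Lrat (log2 fold change 0.41, adjusted p = 0.272), Scarb1 and Rxrb, each with overlapping ranges. The Cyp26 enzymes that degrade retinoic acid were too low to be tested, and Cyp26b1, the highest of them, was at 0.422 to 1.23 in CD24Mid and 1.16 to 9.46 in CD24Neg.

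Of 23 other genes of alcohol and aldehyde handling found in the files, 18 were tested, with 13 higher, 3 lower and 2 not passing, beside the same 34.0% and 34.3% over all genes tested. Xdh, xanthine dehydrogenase, had 1227, 567, 751 and 1147 in CD24Mid and 16301, 20003, 25149 and 19976 in CD24Neg (22.9-fold, log2 fold change 4.51, SE 0.24, adjusted p = 3.54e-07). Ephx2, the soluble epoxide hydrolase, rose from 629 ± 51.8 to 9420 ± 3223 (14.3-fold, adjusted p = 4.2e-07), Cbr1, a carbonyl reductase, from 746 ± 162 to 5308 ± 1163 (7.1-fold, adjusted p = 8.86e-07), and Hagh, which completes the removal of methylglyoxal, from 447 ± 98.6 to 1641 ± 224 (3.7-fold, adjusted p = 3.78e-06). Lower were Cyp2e1, the ethanol-oxidising cytochrome, from 116 ± 41.4 to 11.2 ± 9.78 (adjusted p = 0.00132), and the acetyl-CoA synthetases Acss1 (1.71-fold, adjusted p = 0.000177) and Acss2 (1.58-fold, adjusted p = 0.000502).

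The libraries of a fraction kept a similar order across members. Among the 33 members higher in CD24Neg, CD24Mid library 1 was the highest of its fraction in 24 and the lowest in 0, and CD24Mid library 7 was the lowest in 19 and the highest in 0. In CD24Neg, library 8 was the lowest in 21 and library 6 the highest in 14, with library 4 the highest in 11. Among the 9 members lower in CD24Neg, CD24Mid library 1 was the highest in 4 and the lowest in 0. CD24Mid library 7 was the lowest of its fraction in 5 of these 9, and CD24Neg library 8 in 4. The enterocyte sum was 30341, 19821, 22487 and 23827 in CD24Mid libraries 1, 3, 5 and 7, highest in library 1 and lowest in library 3. In CD24Neg libraries 2, 4, 6 and 8 it was 385685, 598697, 680265 and 405979, highest in library 6 and lowest in library 2. The part of this in the order of the enzymes was not tested. Without CD24Neg libraries 2 and 8, which held the most lymphocyte transcripts, 33 members were higher and 6 lower, a setting chosen after the data had been seen. In that setting 4285 of all genes tested were higher and 4141 lower.

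The 12 genes of the rule that stayed below the low-value filter were Adh6b, Akr1c6, Akr1c21, Akr1d1, Aldh1a2, Aldh1a3, Aldh1l2, Aldh3b2, Aldh3b3, Aldh8a1, Dhrs13os and Rdh19. Only Aldh1l2 (14.4 in CD24Neg library 4) and Aldh3b2 (16.8 in CD24Mid library 3) reached 10 in any library, and Aldh8a1 came to 9.88 in CD24Neg library 6. These 12 genes were not tested. Aldh3b2 (8.12 to 16.8 in CD24Mid, 0.699 to 6.68 in CD24Neg) and Dhrs13os (3.63 to 7.18, and at most 1.44) had ranges that did not overlap, and the ranges of the other 10 overlapped.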

How the data were processed

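Total RNA of 8 flow-sorted samples of mouse small intestine epithelium had been turned into TruSeq RNA libraries, per the labels' protocols. The deposited signal values are the authors' gene-level estimates, with 23318 Ensembl genes listed in every library and 1 scaled value each, per the file headers. Bowtie 0.12.8 and the build NCBIM37 are named in the submitters' processing notes. Which annotation release and which scaling tool were used is not given in the sources used here. In every library, the median ratio to the geometric mean was 1.01. The values carry decimals, most genes could not be turned back into whole reads, and no count model was used.

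Symbols came from GENCODE M21 (21223 of 23318 identifiers matched, 2095 did not), and lengths and sequences from its transcripts, taking the longest protein-coding transcript of a gene. The fit took the 12906 genes that reached 10 in 4 or more libraries. After centring on the median ratio, limma 3.58.1 under R 4.3.3 was run on log2(value + 0.5), using eBayes with a trend and robust variance, no covariates and 6 residual degrees of freedom. Every adjusted p is two-sided, from limma with Benjamini-Hochberg adjustment over all genes tested, with a threshold of 0.05; fold changes are on the log2(value + 0.5) scale, which understates changes of low genes. On simulated data the fit recovered 24 of 50 genes planted at 1.5-fold, 44 of 50 at 2-fold and 50 of 50 at 4-fold. Of 12817 genes without a planted difference, 10 were called. Far fewer genes differed in the simulation than in these data, so it cannot test the scaling. Depth was estimated as the total divided by the value of 1 step on the ladder of low values, and assumes that 1 step is 1 read. Low genes in CD24Neg were measured less precisely, since 1 read was worth more there.

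The members and gene lists were chosen with earlier results of these data known. Values in every library are given for 11 genes of retinoid and aldehyde oxidation (Adh1, Adh5, Aldh1a1, Aldh1a2, Aldh1a3, Aldh1b1, Aldh2, Rdh7, Rdh10, Dhrs3 and Dhrs9), for the 4 members of each family with the largest mean, for the 2 largest differences per direction and family among members that passed, and for members that did not pass but had a mean above the median of all genes tested. From the lists outside the families, up to 4 genes by adjusted p are named, and those in a direction that these missed. Of the retinoid list, the genes that did not pass are named too. Alternatives were no filter or a stricter one, pseudocounts of 0.1 and 1, no centring, quantile normalization, scaling by totals that leave out the 20 most abundant genes, limma without trend and robust variance, a test against a fold change of 1.5 and leaving out each library. Leaving out CD24Neg libraries 2 and 8 together was added after the data had been seen.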

Additional observations from a re-analysis of the deposited data

Results flagged for a closer look

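Within a fraction of 4 libraries, 1 library stood apart from the other 3 for 4 members, by Dixon's criterion on the gap to the nearest value. For Dhrs11, CD24Mid library 1 had 1871, with a gap of 0.919 of the group's range, and for Akr1a1, CD24Neg library 8 had 9359 (0.882). For Akr1c19, CD24Neg library 4 had 1433 (0.862), and for Akr1b8, CD24Neg library 2 had 105.2 (0.833). In all, 96 groups were examined, and chance alone marks about 1 in 20 groups.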

How the results depend on the processing

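Of the 48 members, 27 kept their direction and their side of the threshold under every alternative run. Over all members and alternatives, 803 values did so, 32 lost the call, 9 gained one and 14 changed sign. The changes of sign all fell on members that did not pass: the log2 fold change of Akr1b8 was 0.26 under quantile normalization and -0.28 to 0.22 with each library left out in turn, that of Dhrs4 was -0.19 to 0.14 with each library left out and 0.21 without CD24Neg libraries 2 and 8, and that of Aldh6a1 was -0.12 to 0.11 and 0.27. The cause was not tested. Scaling by totals that leave out the 20 most abundant genes gave 2842 genes higher, and ratios of the family sums of 3.48 (Adh), 1.39 (Akr), 1.14 (Aldh), 1.73 (Dhrs) and 2.01 (Rdh), since it lowers every CD24Neg value relative to CD24Mid. Tested against a fold change of 1.5, which asks for a larger difference, 4 members were lower and 23 higher, and 2360 genes were higher and 2430 lower. The higher members that lost the call were Akr1a1, Akr1b10, Akr1c12, Akr1c13, Akr1e1, Akr7a5, Dhrs3, Dhrs7b, Rdh10 and Rdh14. The lower members that lost it were Adh5, Aldh1b1, Aldh5a1, Dhrs7 and Rdh11. With each library left out in turn, 32 to 34 members were higher and 7 to 10 lower. Over all genes tested, 4078 to 4394 were then higher and 4143 to 4324 lower. No paired analysis was possible because the fractions share no title numbers and no label pairs libraries across them. The number of reads limits Rdh1 in CD24Neg and Dhrs9 in CD24Mid, which are at a few reads.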
